A study of Drosophila melanogaster with 30 samples.

Results

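Nuclear RNA of naive MB131 flies was compared with that of naive flies lacking CsChrimson, which are the 6 libraries whose titles carry these names out of 30 in the series, 3 in each group. Both groups belong to the strain CS10, were raised in a light and dark cycle and were never activated, so the contrast compares them before any light protocol. MB131 is the name of a fly line in the titles, and CsChrimson is a red-light-gated cation channel used to excite neurons. The channel is named as missing only for the flies without CsChrimson, whose own line is not named, and the labels say neither which cells MB131 marks nor how many flies were pooled. Line, insertions and presence of the channel therefore cannot be told apart in this contrast. Nor can any difference in how the flies and libraries of the groups were collected or prepared. The study's title gives the aim as finding genes controlled by Kdm4B, a histone demethylase, in the mushroom body. All 30 libraries were made from FLAG-precipitated nuclei of crosslinked heads. The same 2 genotypes were also sampled with 5 min of activation and 10 min of rest, in 6 further libraries that share none with the naive contrast.

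The mushroom body is the centre of associative olfactory learning in the insect brain, and its intrinsic neurons are called Kenyon cells. Driver lines and light-gated channels are combined in such experiments so that a chosen cell type can be excited at will, and flies without the channel serve to show what light alone does. Separate stocks can also differ in inherited sequence, in transgene insertions and in physiology, and such differences are present before any stimulus.

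Library totals were similar. The 3 naive MB131 libraries held 11272780 to 11684873 counts and the 3 naive libraries without CsChrimson held 10067936 to 11952350. On the first principal component of these 6 libraries, which carried 41.9% of the variance of log2 CPM (reads as a share of the scaled library total), the MB131 libraries lay at -24.4 to -21.0 and the others at 19.6 to 25.6. The labelled tissue was checked against markers. Kenyon cell markers summed to 8296 to 8629 CPM in naive MB131 and to 7553 to 8403 CPM without CsChrimson. Photoreceptor markers summed to 28397 to 29840 and 26812 to 27345 CPM, and fat body markers to 18344 to 18592 and 18024 to 21580 CPM, so RNA of other head tissues was present in all 6 libraries. In such bulk RNA, fewer cells of a type and less RNA per cell cannot be told apart. The labels do not say that the libraries came from separate flies, so the p-values speak of library spread alone, which may be technical.

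Of 11457 genes tested, 835 were higher in naive MB131 flies (7.29% of genes tested) and 737 were lower (6.43%), together 13.7%, by edgeR's quasi-likelihood test at an adjusted p under 0.05. Most differences were small. Only 174 of the called genes (1.52% of genes tested) differed by more than 2-fold, 58 of them higher and 116 lower in MB131. The CPM of the groups did not overlap for 1430 of the 1572 called genes, and for 2833 of all 11457 genes tested (24.7%). Calls and overlap come from the same libraries, so the 1430 add no separate support. The median log2 fold change over all genes was -0.0033. Leaving out 1 library at a time, 885 of the 1572 (56.3%) were called in each of the 6 fits.

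In the separate activated libraries, MB131 flies were higher than activated flies without CsChrimson for 1111 genes (9.70% of genes tested) and lower for 1073 (9.37%). Of the genes higher in naive MB131, 432 were also higher after activation, which is 51.7% of the naive and 38.9% of the activated list. Of the genes lower in naive MB131, 345 were also lower, which is 46.8% and 32.2% of these lists. A further 69 were called in opposite directions, and 726 of the 1572 were not called in activated flies. Of the 174 genes past 2-fold in naive flies, 74 had the same call when activated and 1 the opposite call. Over all 11457 genes the naive and activated log2 fold changes correlated at 0.43 (Pearson). The change of the difference with activation was tested for every gene and called for 714 (6.23%), of which 335 were among the 1572. This change includes the naive difference that gave the 1572 calls, so the 335 are not independent of those calls.

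**Figure D1:**
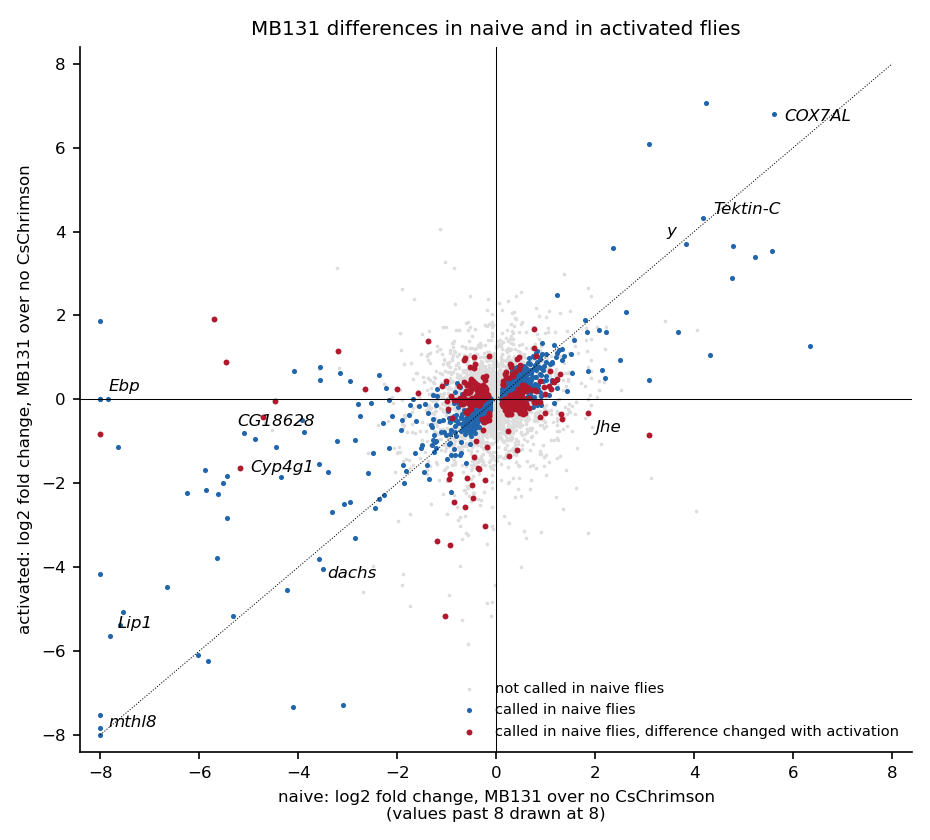
Each point is 1 gene. The horizontal axis gives the log2 fold change of MB131 over no CsChrimson in naive flies and the vertical axis the same in activated flies (3 libraries per group), with fitted values past 8 drawn at 8. Points on the dotted line had equal differences. dachs, Tektin-C and y lie near the line, while Jhe and CG18628 lie near 0 on the vertical axis. mthl8, with 0 reads in MB131, is drawn at the limit of both axes, so its place does not show equal differences.

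A first group of genes stood apart between the stocks in both naive and activated flies, and some of them were nearly switched. The receptor gene mthl8 (FBgn0052475, chr3L:22428-26308, dm6), a methuselah-like G-protein-coupled receptor, had 0 reads in every naive and activated MB131 library. Without CsChrimson it had 88.6, 82.7 and 83.8 CPM in naive and 83.3, 82.6 and 85.0 CPM in activated libraries. Every library without CsChrimson was high and no MB131 library had a read. At a floor of 3 counts over the 3 naive MB131 libraries, mthl8 was at least 999-fold lower there (edgeR adjusted p = 9.48e-49). Across the 24 libraries of both lines, with or without RNAi, it reached at most 0.183 CPM.

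The lipase gene Lip1 (FBgn0023496, chr2L:10699408-10701544) had 0.167, 0 and 0.261 CPM in naive MB131 and 31.0, 36.4 and 35.7 CPM in naive flies without CsChrimson. Its log2 fold change was -7.81 ± 0.38 (SE, edgeR adjusted p = 2.31e-33). The groups were far apart, as they were for dachs (FBgn0262029, chr2L:8466817-8488671), an unconventional myosin of the planar polarity and growth pathway. Expression of dachs was 3.84, 5.29 and 4.70 CPM in naive MB131 and 62.2, 53.2 and 50.4 CPM without CsChrimson, which gave -3.58 ± 0.17 in log2 (edgeR adjusted p = 4.18e-34) and -3.81 ± 0.18 in activated flies. Srg3 followed with -2.46 ± 0.17, and fu2, whose identifier has no position in the annotation, with -2.37 ± 0.13. For these 5 genes all 24 libraries of the lines lay below all 6 libraries without CsChrimson, as they also did for CG34324, CG3708, TotM and the cytochrome P450 gene Cyp4d20. Cyp4d20 was the most abundant of them, at 92.8, 94.2 and 88.9 CPM in naive MB131 and 226, 214 and 220 CPM without CsChrimson (-1.26 ± 0.06).

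Other genes were on in MB131 and low without CsChrimson. Tektin-C (FBgn0035638, chr3L:5794405-5796543), a filament protein of cilia and flagella, had 76.7, 76.0 and 80.3 CPM in naive MB131 and 4.15, 5.28 and 3.39 CPM without CsChrimson. The groups did not overlap, and the log2 fold change was 4.18 ± 0.14 (edgeR adjusted p = 8.54e-47), with 4.31 ± 0.14 in activated flies. High levels were found in all 4 MB131 groups, since those with RNAi averaged 64.7 and 67.7 CPM, while the 4 MB477 groups averaged 2.29 to 3.63 CPM. HemK1 (chr2L:6466217-6467698) and Ltn1 (chr3L:19544345-19552290), the latter a ubiquitin ligase that acts on stalled ribosomes, had the same order of levels. HemK1 had 64.4, 67.1 and 67.3 CPM against 16.8, 17.8 and 12.1 CPM (2.08 ± 0.11), and 12.1 to 18.1 CPM on average in the MB477 groups. Ltn1 had 167, 180 and 180 CPM against 59.9, 60.6 and 55.7 CPM (1.58 ± 0.06), and 54.2 to 64.7 CPM on average in the MB477 groups. COX7AL, a gene of the cytochrome c oxidase 7A family, had 4.09, 7.16 and 3.57 CPM against 0.0815, 0.0926 and 0.0969 CPM. The P450 gene Cyp49a1 had a log2 fold change of 2.61 ± 0.23. Cyp49a1 averaged 14.9 and 11.8 CPM in the MB131 RNAi groups and 1.49 to 3.21 CPM in the MB477 groups.

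The pigmentation gene y, needed for black melanin, was, of the 10 groups, low only in both without CsChrimson. It had 9.35, 11.2 and 10.3 CPM in naive MB131 against 1.55, 0.278 and 0.194 CPM (3.83 ± 0.31, edgeR adjusted p = 5.74e-19), and 6.15 to 24.9 CPM over the 24 libraries of the lines. Crys, a protein of the corneal lens, was likewise higher in every library of the lines than in any without CsChrimson. In naive flies Crys had 201, 197 and 201 CPM against 91.7, 82.6 and 74.5 CPM (1.27 ± 0.06). teq, a large serine protease gene, had 359, 384 and 389 CPM against 202, 228 and 216 CPM (0.81 ± 0.04), also without overlap over all 30 libraries. The eye colour transporter gene w, a copy of which marks many fly transgenes, had 110, 118 and 108 CPM against 81.4, 70.2 and 72.5 CPM (0.59 ± 0.06). w was much higher in some other groups, at 1180 CPM on average in naive and 2249 CPM in activated MB477 RNAi flies.

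**Figure D2:**
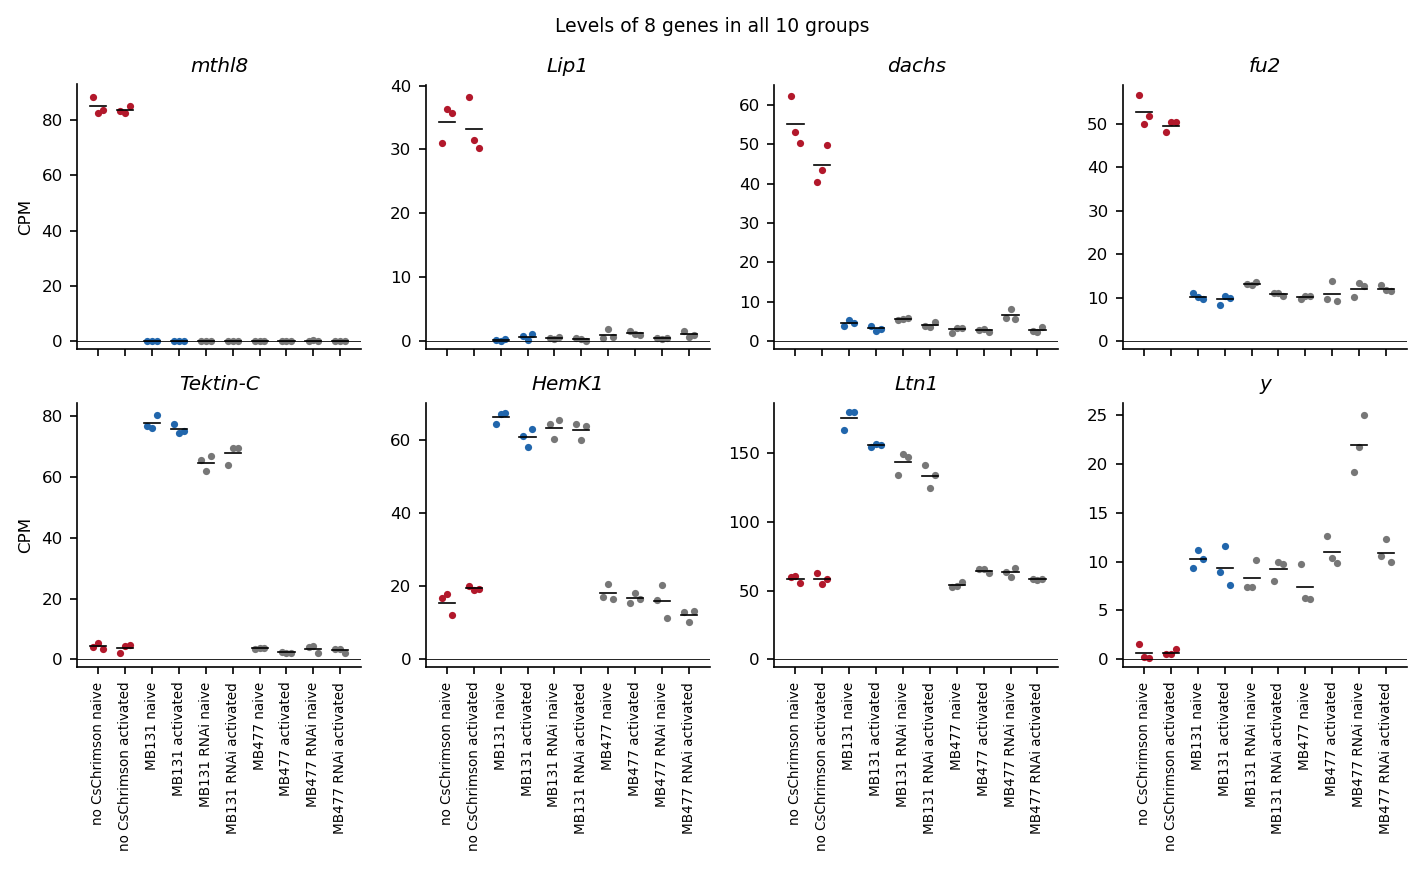
CPM of 8 genes in all 30 libraries, 3 points and a black mean line per group; red is no CsChrimson, blue is MB131 and grey the other groups. The upper 4 genes are high only without CsChrimson, while Tektin-C, HemK1 and Ltn1 are high in the 4 MB131 groups and y is low only without CsChrimson.

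Called genes lay on every arm. The share was 12.4% of tested genes on X, 15.5% on 2L, 12.95% on 2R, 14.1% on 3L and 13.3% on 3R. Chromosome 4 had 22 called of 101 tested (21.8%), of which 18 were lower and 4 higher in MB131, and 28 were called in activated flies with 13 called the same way in both. Among 120 windows of 1 Mb with at least 20 tested genes, the median share was 12.9%. The highest share was 35.1% at chr2L:7000001-8000000, with 34 of 97 genes called, 26 of which had the same call in activated flies. CG43322 lies in this window (2.21 ± 0.18).

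Muscle genes were higher in naive MB131. Of 29 muscle markers tested, 23 were higher and 0 lower (79.3% called, against 13.7% of all genes), with a median log2 fold change of 0.44 against -0.0033 over all genes; 24 were higher and 0 lower in activated flies, 21 of them in both. Act79B, a muscle actin, had 102, 120 and 129 CPM against 49.0, 44.7 and 41.9 CPM (1.37 ± 0.08, edgeR adjusted p = 2.62e-27). The LIM protein gene Mlp84B had 404, 399 and 416 CPM against 242, 271 and 249 CPM (0.68 ± 0.05). The groups did not overlap for either gene, nor for the calcium pump SERCA (0.60 ± 0.04), the actin Act87E (0.60 ± 0.06) or the muscle myosin heavy chain gene Mhc (0.46 ± 0.04). Actin genes are near-identical copies, so counts may be shared among them. The summed muscle markers reached 15846 to 16890 CPM in naive MB131 and 11574 to 12752 CPM without CsChrimson, and ranged from 9379 to 20150 CPM over the 30 libraries.

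Genes of the mitochondrial respiratory chain encoded in the nucleus moved in the same direction. Of 74 tested, 47 were higher and 0 lower (63.5%, against 13.7% of all genes), with a median of 0.24. The step was small, between 0.17 and 0.56 for all called members but COX7AL. UQCR-Q, a subunit of complex III, had 218, 176 and 201 CPM against 141, 163 and 138 CPM (0.43 ± 0.06, edgeR adjusted p = 1.18e-09). For the complex I gene ND-13B the groups overlapped, with 70.8, 63.2 and 51.9 CPM against 38.7, 51.9 and 50.2 CPM (0.41 ± 0.08). In activated flies 25 of the 74 were higher and 0 lower, and the change was called for 2. None of 15 tested genes of the mitochondrial genome was called by edgeR in naive flies. The higher muscle sums above moved with these genes, and their part in the result was not tested.

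Chaperone genes, which keep proteins folded and are induced by heat and other stress, were also higher before any activation. Of 24 tested, 12 were higher and 0 lower (50.0%, against 13.7% of all genes), with a median of 0.37. In 4 of the 6 fits that left out 1 library, 1 was lower. Hsp83, the fly Hsp90, had 1073, 1136 and 1098 CPM in naive MB131 and 510, 515 and 507 CPM without CsChrimson. Every naive MB131 library held more than any naive library without the channel, and the log2 fold change was 1.11 ± 0.03 (edgeR adjusted p = 9.48e-49). The small heat shock gene Hsp26 had 20.7, 18.6 and 18.0 CPM against 11.1, 10.6 and 11.9 CPM (0.77 ± 0.09). Hsp68, an inducible member of the Hsp70 family, had 32.9, 27.6 and 29.7 CPM against 13.4, 12.2 and 14.9 CPM (1.16 ± 0.16). Cofactors moved with them, namely Stip1, which links Hsp70 and Hsp90 (0.66 ± 0.06), and the Hsp40 gene DnaJ-1 (0.57 ± 0.04). The constitutive Hsc70-4 was higher by 0.37 ± 0.04.

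Summed chaperone levels were 4365 to 4459 CPM in naive MB131 and 3209 to 3228 CPM without CsChrimson, and 15975 to 16322 and 11998 to 12115 CPM in the activated libraries. There 22 of the 24 were higher in MB131 than without CsChrimson, including the 12 of the naive contrast. Hsp83 then had 5210, 5284 and 5418 CPM against 4412, 4471 and 4421 CPM, a difference of 0.26 ± 0.03. The tested change from the naive difference was -0.85 ± 0.05 (edgeR adjusted p = 2.86e-28). For Hsp26 the difference was larger after activation, at 1.22 ± 0.05 (change 0.45 ± 0.11). For DnaJ-1 it was 0.51 ± 0.04 (change -0.07 ± 0.06, edgeR adjusted p = 0.646).

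Immune effector genes were lower in naive MB131 flies. The fly fat body and blood cells secrete antimicrobial peptides, bomanins and Turandot proteins under control of the Toll, Imd and JAK-STAT pathways. Of 21 tested bomanin, Daisho and Turandot genes, 14 were lower and 0 higher (66.7%, against 13.7% of all genes), with a median of -0.53. Of the 14, 12 were also lower in activated flies. BomBc1 had 12.3, 15.6 and 14.6 CPM against 25.4, 31.2 and 28.6 CPM (-1.0 ± 0.14, edgeR adjusted p = 1.17e-08). TotM, a Turandot gene, had 4.09, 4.52 and 4.79 CPM against 15.1, 19.3 and 14.6 CPM (-1.87 ± 0.20). The groups were apart for both, and for Dso2 (-0.94 ± 0.13) and BomT2 (-0.84 ± 0.16).

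Of 20 antimicrobial peptide genes tested, 7 were lower and 1 higher (40.0%, against 13.7% of all genes), with a median of -0.37. The attacin AttA had 16.95, 20.5 and 17.1 CPM against 38.1, 42.2 and 45.8 CPM (-1.21 ± 0.12, edgeR adjusted p = 4.87e-14). Its neighbour AttB was lower by a similar amount (-1.11 ± 0.17), and the near-identical attacin genes may share reads. The diptericin DptB differed by -0.96 ± 0.15 in naive and -1.90 ± 0.17 in activated flies. The gene that was higher is Drsl5, of the drosomycin family, with 213, 196 and 200 CPM against 180, 158 and 178 CPM (0.24 ± 0.06), and it was lower in activated MB131 (-0.76 ± 0.06). Of 33 recognition and signalling genes, 7 were lower and 0 higher (21.2%, against 13.7% of all genes). Among these were the peptidoglycan receptors PGRP-SD (-0.78 ± 0.12), PGRP-LB (-0.49 ± 0.10) and PGRP-SB1 (-0.47 ± 0.10). pirk, an inhibitor of the Imd pathway, had 18.3, 21.2 and 18.5 CPM against 29.2, 28.8 and 26.1 CPM (-0.54 ± 0.13). In activated flies pirk was instead higher in MB131 by 0.77 ± 0.14, and the 3 PGRP genes differed by -0.03 to 0.02. Summed fat body markers overlapped between the naive groups, and summed blood cell markers were 1540 to 1642 and 1547 to 1595 CPM. Single members differed all the same. Of 19 tested blood cell markers, 5 were higher and 2 lower (36.8%), and of 25 fat body markers 3 were higher and 5 lower (32.0%). The part of these tissues in the immune result was not tested.

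Digestive and male reproductive genes, which are not typical of heads, were lower in naive MB131. Of 17 tested gut enzyme genes, 8 were lower and 0 higher (47.1%, against 13.7% of all genes). The 8 became 5 with only the 6 libraries of the contrast in the fit, and 1 with a mean of at least 5 CPM required, so the count rests on genes of low level. The trypsin gene alphaTry had 0 reads in each naive MB131 library and 3.18, 6.39 and 2.32 CPM in those without CsChrimson. At the floor of 3 counts over the group it was at least 46.4-fold lower (edgeR adjusted p = 3.17e-09). Its close copy betaTry and the Jonah proteases Jon65Aiii and Jon65Aiv also had 0 reads in naive MB131, and were at least 24.2-fold, 35.1-fold and 41.1-fold lower. The near-identical copies may share reads. All 4 were called lower in activated MB131 as well. With 0 reads in naive MB131, these 4 genes could not be called higher there. The count of 8 lower genes and its share partly reflect this. The median of the list was -1.19 with genes at 0 placed at their bound.

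Of 14 tested male reproductive genes, 8 were lower and 1 higher (64.3%, against 13.7% of all genes). Ebp, a protein of the ejaculatory bulb, had 0 reads in naive MB131 and 6.11, 19.1 and 15.2 CPM in naive flies without CsChrimson, at least 154-fold lower (edgeR adjusted p = 2.35e-14). EbpII had 1.63, 3.15 and 5.52 CPM there, and the seminal fluid gene Sfp87B 1.47, 2.96 and 3.10 CPM. All 3 genes had 0 CPM in the 24 libraries of the lines and in the 3 activated libraries without CsChrimson. They were thus seen in the naive libraries without CsChrimson and in no other. Only that group carried them through the filter on low counts, so a call for them could only be lower. The count of 8 lower genes and its share partly reflect this. With DESeq2 none of the 3 was called, with adjusted p of 0.389, 0.517 and 0.550. The gene that was higher is Sfp65A, at 0.167, 0.597 and 1.65 CPM against 0, 0.0926 and 0 CPM, and its call was lost in 3 of the 6 fits that left out 1 library. The P450 gene Cyp4g1, which makes cuticular hydrocarbons in oenocytes, was high in the same 3 libraries. It had 0.752, 0.426 and 0.261 CPM in naive MB131 against 10.6, 31.1 and 12.1 CPM (-5.18 ± 0.52), and 1.17, 1.56 and 0.263 CPM in activated flies without CsChrimson. Summed gut genes were 21.5 to 29.3 and 36.4 to 59.3 CPM, and summed male genes 20.9 to 25.8 and 49.8 to 66.4 CPM. The part that such RNA plays in other results was not tested.

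Circadian genes differed in both directions. In the fly clock, Clk and its partner switch on tim, per, vri and Pdp1. The proteins of tim and per shut that activity off, and those of vri and Pdp1 act on Clk itself. Of 17 clock genes tested, 7 were lower and 3 higher in naive MB131, which is 58.8% against 13.7% of all genes. tim (FBgn0014396, chr2L:3493986-3508119) had 1032, 1089 and 1121 CPM in naive MB131 and 2296, 1959 and 2109 CPM without CsChrimson, so that its log2 fold change was -0.97 ± 0.04 (edgeR adjusted p = 3.12e-38). Every naive MB131 library lay below every naive library without the channel. vri had 216, 228 and 235 CPM against 411, 346 and 380 CPM (-0.74 ± 0.05), and Pdp1 had 1772, 1709 and 1857 CPM against 3056, 2750 and 2891 CPM (-0.70 ± 0.04). The groups overlapped for neither vri nor Pdp1. per differed less, with 102, 96.2 and 102 CPM against 126, 117 and 107 CPM (-0.22 ± 0.07, edgeR adjusted p = 0.0126). The call for per was lost without MB131 replicate 2 (edgeR adjusted p = 0.0816) and without the first library lacking CsChrimson (edgeR adjusted p = 0.160).

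Clk and the light sensor cry stood on the other side. Clk had 298, 288 and 323 CPM in naive MB131 against 215, 188 and 195 CPM (0.60 ± 0.05, edgeR adjusted p = 1.90e-16). cry had 194, 207 and 185 CPM against 136, 132 and 140 CPM (0.52 ± 0.05). Both genes were higher in each MB131 library than in any other of the 6. The labels give no time of day for the collections, and a difference in clock phase and one between the stocks cannot be told apart here.

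The clock differences were smaller or turned in the activated libraries. There tim had 717, 709 and 707 CPM in MB131 against 848, 828 and 817 CPM without CsChrimson, a difference of -0.22 ± 0.04 that was smaller than in naive flies by 0.75 ± 0.06 (edgeR adjusted p = 1.78e-19). For vri the direction turned, with 137, 140 and 140 CPM against 111, 106 and 120 CPM (0.31 ± 0.06). Pdp1 differed by 0.01 ± 0.04 and Clk by -0.11 ± 0.05, and neither was called. Of the 17 clock genes, the change with activation was called for 7, namely 5 upward and 2 downward. Over all 30 libraries tim was highest in the 3 naive ones without CsChrimson, at 1959 to 2296 CPM, whereas means of the 8 groups of the lines ran from 711 to 1081 CPM. Low Clk was shared with another group: naive MB477 had 195, 198 and 222 CPM, which overlaps the naive libraries without CsChrimson.

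**Figure D3:**
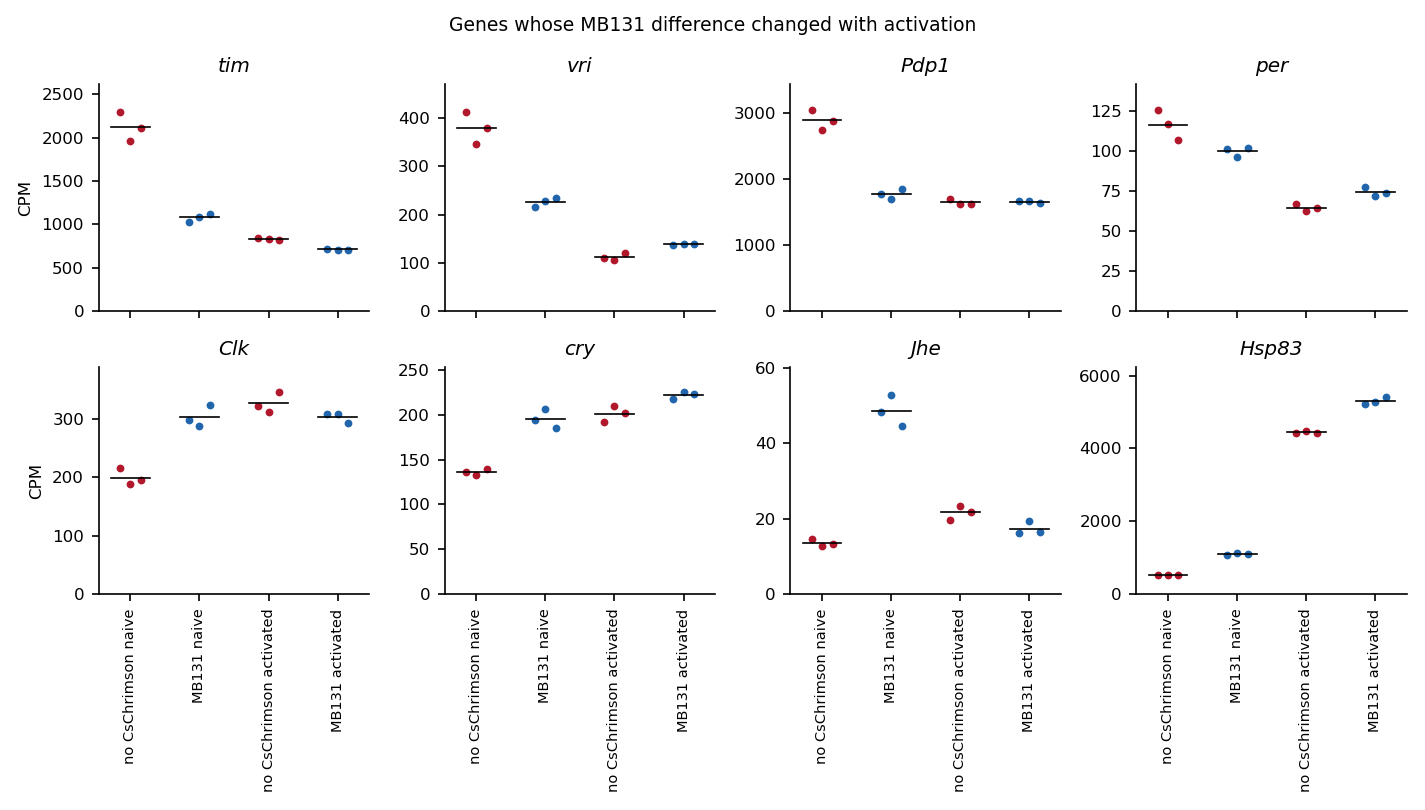
CPM of 6 clock genes, Jhe and Hsp83 in the 12 naive and activated libraries of MB131 (blue) and of flies without CsChrimson (red), 3 points and a black mean line per group, with axes from 0. tim, vri and Pdp1 are highest in naive flies without CsChrimson, and Clk and cry are lowest there; Jhe is highest in naive MB131.

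Some further differences were present in naive flies and changed with activation. Jhe, the esterase that breaks down juvenile hormone, had 48.3, 52.8 and 44.7 CPM in naive MB131 and 14.5, 12.7 and 13.2 CPM without CsChrimson (1.85 ± 0.12, edgeR adjusted p = 1.27e-24). In activated flies the order was not kept, with 16.1, 19.3 and 16.5 CPM against 19.8, 23.5 and 21.7 CPM (change -2.17 ± 0.17, edgeR adjusted p = 5.84e-19). The other 3 naive groups of the lines averaged 44.2 to 49.0 CPM, near naive MB131. CG18628 was the reverse, with 0.418, 0.171 and 0.348 CPM against 7.58, 6.76 and 7.07 CPM (-4.47 ± 0.58) and no call in activated flies (-0.04 ± 0.59). The UDP-glycosyltransferase gene Ugt35B1, of a family that conjugates foreign compounds, had 145, 139 and 131 CPM against 66.5, 77.6 and 66.2 CPM (0.98 ± 0.06). In activated flies it differed by 0.13 ± 0.06 (edgeR adjusted p = 0.124). Of 79 cytochrome P450 genes, 14 were higher and 12 lower (32.9%, against 13.7% of all genes).

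Glial markers tended higher. Of 20 tested, 9 were higher and 2 lower (55.0%, against 13.7% of all genes), with a median of 0.14. Obp44a had 581, 519 and 515 CPM against 321, 355 and 323 CPM (0.69 ± 0.05, edgeR adjusted p = 8.34e-19), and the difference in activated flies was the same to 2 decimals. nrv2, a subunit of the sodium pump, differed by 0.56 ± 0.04. e, which inactivates amine transmitters in glia, had 116, 100 and 98.1 CPM against 73.0, 68.8 and 74.9 CPM (0.54 ± 0.07), and wrapper, a surface protein of cortex glia, differed by 0.48 ± 0.07. The GABA transporter gene Gat differed by 0.45 ± 0.06 and lies on chromosome 4. repo, the transcription factor that defines most glia, had 84.8, 85.6 and 98.1 CPM against 73.6, 75.2 and 75.8 CPM (0.26 ± 0.07), and its call was lost without MB131 replicate 3 (edgeR adjusted p = 0.136). The lower members were the lipocalin gene GLaz (-0.21 ± 0.06) and the citrate transporter gene Indy (-0.20 ± 0.06), and only 1 member was lower in 3 of the 6 fits that left out 1 library. Summed glial markers were 5114 to 5173 CPM in naive MB131 and 4470 to 4530 CPM without CsChrimson, with no overlap.

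Kenyon cell markers differed by small steps. Of 21 tested, 7 were higher, between 0.14 and 0.32, and 1 was lower (38.1%, against 13.7% of all genes), with a median of 0.11 and 19 of the 21 above 0. Dop1R1, the dopamine receptor needed for olfactory learning, had 180, 173 and 182 CPM against 149, 129 and 149 CPM (0.32 ± 0.06, edgeR adjusted p = 1.35e-05). Dop1R2, a second dopamine receptor of these cells, had 194, 206 and 204 CPM against 185, 142 and 177 CPM (0.26 ± 0.06). Its call was lost without the second library lacking CsChrimson (edgeR adjusted p = 0.0885). The transcription factor gene ab differed by 0.28 ± 0.06, and sNPF, a peptide of Kenyon cells, had 508, 545 and 531 CPM against 507, 475 and 489 CPM (0.11 ± 0.04, edgeR adjusted p = 0.0922). The lower member was mamo (-0.15 ± 0.04). The count of higher markers was 15 without the first library lacking CsChrimson and 4 without the second, so it rests on these libraries. After activation 0 markers were higher and 11 lower, and the change was called for 14, all downward (Dop1R1 -0.47 ± 0.08, sNPF -0.44 ± 0.06).

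Photoreceptor markers were mixed. Of 34 tested, 8 were higher and 2 lower (29.4%, against 13.7% of all genes), with a median of 0.08. The count of higher markers fell to 4 without MB131 replicate 2, and to 5 without the first library lacking CsChrimson, with upper-quartile scaling, with no filter on low counts or with only the contrast's libraries. That of lower markers was 1 without MB131 replicate 1 and with only the contrast's libraries. The lens protein gene retinin had 7670, 6812 and 7000 CPM against 5765, 5804 and 5991 CPM (0.29 ± 0.04), and chp, a membrane protein of photoreceptors, differed by 0.26 ± 0.05. The lower members were the homeobox gene oc (-0.33 ± 0.08) and the lipase gene inaE (-0.17 ± 0.05).

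**Figure D4:**
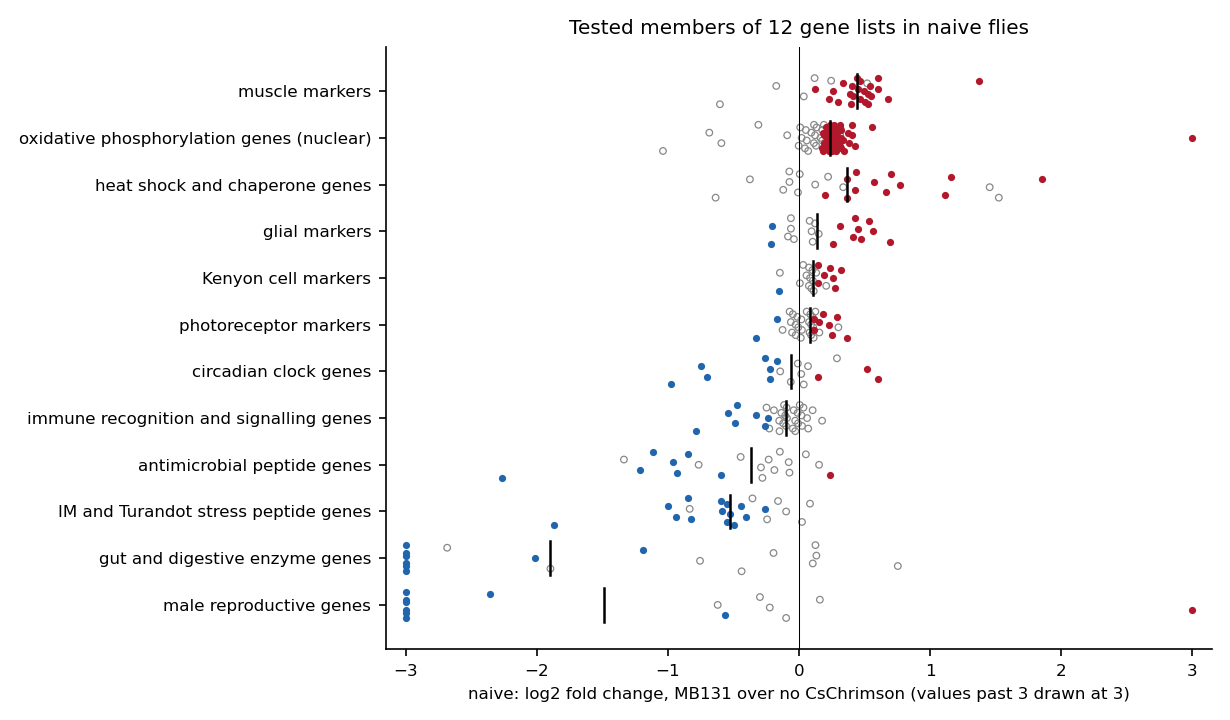
Each point is 1 tested member of 1 of 12 gene lists, placed by its log2 fold change of naive MB131 over naive flies without CsChrimson, with values past 3 drawn at 3. Red and blue points were called higher and lower, open points were not called, and black bars are medians over tested members. Muscle, oxidative phosphorylation and chaperone lists lie to the right of 0, and immune effector, gut and male lists to the left.

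Chromatin genes gave no calls. Kdm4B, the gene of the study's title, had 0.752, 1.02 and 0.957 CPM against 0.652, 0.833 and 1.07 CPM, overlapping groups that differed by 0.11 ± 0.63 in log2 (edgeR adjusted p = 0.951). At under 2 CPM its difference was not detectable at this depth. By edgeR 0 of 14 histone lysine demethylase genes, 0 of 16 genes of H3K9 methylation and heterochromatin and 0 of 28 Polycomb and trithorax genes were called in naive flies. Of all genes tested, 13.7% were called there, and 2723 had an unadjusted p under 0.05. These lists are short, and their share of calls was not tested against that of all genes. Of 16 activity-regulated genes, 1 was called (6.25%, against 13.7% of all genes). It was kay, the fly Fos gene, with 184, 201 and 200 CPM against 163, 166 and 163 CPM (0.25 ± 0.05, edgeR adjusted p = 8.13e-05). Without the first library lacking CsChrimson, 3 members were higher and 1 lower, and without MB131 replicate 1, 2 were higher. The nuclear receptor gene Hr38, widely used as a mark of neuronal activity, had 16.0, 14.8 and 15.3 CPM against 12.4, 12.2 and 12.2 CPM. Its groups did not overlap, but the test was not passed (0.32 ± 0.15, edgeR adjusted p = 0.162). The immediate early gene sr had 12.4, 13.3 and 11.4 CPM against 14.1, 18.6 and 16.3 CPM (-0.40 ± 0.16, edgeR adjusted p = 0.0787).

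Neuronal lists differed in their share of calls. Of 22 potassium channel genes, 6 were higher and 3 lower (40.9%, against 13.7% of all genes), and of 22 sodium and calcium channel genes 3 and 3 (27.3%). Of 29 active zone and vesicle release genes, 1 was higher and 3 were lower (13.8%), of 53 cell surface genes of wiring 1 and 3 (7.55%), and of 38 neuropeptide genes 4 and 1 (13.2%). These 3 lists lay near or below the share of all genes. Without MB131 replicate 2 the counts lower were 1 for sodium and calcium channels and 1 for active zone genes, and the neuropeptide count higher was 2. Without the second library lacking CsChrimson the counts lower were 1 for sodium and calcium channels, 1 for active zone genes and 1 for wiring genes, and without MB131 replicate 3 the wiring count was also 1. The counts of 1 for active zone, wiring and neuropeptide genes lay between 0 and 2 over the fits that left out 1 library. Of 83 cytoplasmic ribosomal protein genes, 10 were higher and 0 lower (12.05%, near the 13.7% of all genes). The 10 became 4 without MB131 replicate 1 or the first library lacking CsChrimson, and 20 without MB131 replicate 3 or the second library lacking CsChrimson.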

How the data were processed

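Nuclear RNA-seq counts of fly head nuclei were analysed. The deposited table holds whole-number read counts per gene, made by the authors with STAR on dm6 and HTSeq, per the submitters' processing notes, with no versions. No source used here states strand or multi-mapping settings, and overlapping genes cannot be told apart. Among genes named, CG3708, CG43322, Ltn1, Hsp83, Hsp68, tim, per, cry, Act87E, SERCA, UQCR-Q, Obp44a, repo, ab, DptB, PGRP-SD, Hr38 and Kdm4B overlap exons of another gene. Of 17559 identifiers, 17253 had a reference name and 17316 a position in the Ensembl annotation of the same assembly.

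Counts were tested as deposited with edgeR 4.0.16 (R 4.3.3): filterByExpr with a minimum count of 10 and total of 15, TMM scaling, and a robust quasi-likelihood fit of all 30 libraries (8291599 to 14344348 counts) with a mean per group. Tests were two-sided with Benjamini-Hochberg adjustment over 11457 genes and a threshold of 0.05. Standard errors (SE) are the size of the change over the root of F. Replicates differed by more than sampling noise (chi-square per gene 3.04 to 6.90). Floors of 3 counts cover counting error only. The model was checked on simulated counts with the same spread for every gene, a simpler setting than these data.

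Genes named were the called, non-overlapping genes of at least 5 CPM with the 14 largest changes or the 6 smallest p-values per direction, the 4 largest changes per list and 10 always given (Kdm4B, w, Hr38, sr, kay, tim, per, vri, Hsp26, sNPF). cry, Stip1, DnaJ-1, Hsc70-4, Mhc, repo, GLaz, Indy, mamo, inaE, Drsl5 and Sfp65A were named after their values were seen. The comparison and gene lists were chosen with earlier results of these data known. Alternatives were other scalings and filters, a replicate block, fewer libraries, DESeq2 1.42.0 and leaving out each library.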

Additional observations from a re-analysis of the deposited data

Results flagged for a closer look

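The MB131 against no CsChrimson difference itself differed between naive and activated flies for the genes below, by edgeR's test of that change with adjustment over all genes tested; values are activated minus naive differences in log2. No cause was tested. The change includes the naive difference that decided the naive calls, so a smaller difference after activation is partly built in.

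Among genes higher in naive MB131, the difference was lower after activation for Jhe (-2.17), Drsl5 (-1.0), Hsp83 (-0.85), Ugt35B1 (-0.85), Clk (-0.71), e (-0.68), Dop1R2 (-0.48), Dop1R1 (-0.47), Stip1 (-0.42), Act87E (-0.40), cry (-0.38), Gat (-0.34), and nrv2 (-0.28). It was larger after activation for retinin (0.53), Hsp26 (0.45) and teq (0.22). The Kenyon cell peptide gene sNPF, not called in naive flies, changed by -0.44.

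Among genes lower in naive MB131, the difference moved upward for CG18628 (4.42), Cyp4g1 (3.55), pirk (1.31), vri (1.05), PGRP-SD (0.76), tim (0.75), Pdp1 (0.71), PGRP-LB (0.51), PGRP-SB1 (0.47), per (0.43) and Indy (0.38), and downward for DptB (-0.94) and mamo (-0.25).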

How the results depend on the processing

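The counts of genes higher (835) and lower (737) in naive MB131 stayed within 1.5 times under all alternatives run. Both were lowest with only the 6 libraries of the contrast (626 and 566). The most higher genes were found with a replicate block (829, with 724 lower), and the most lower genes with upper-quartile factors (838, with 724 higher). Which direction held more genes depended on the setting: lower genes were more with upper-quartile factors and with no filter on low counts (745 higher, 828 lower), and higher genes in the other alternatives. The block is no pairing: same-numbered naive libraries correlated at -0.048 to -0.014, so they share only a number. With a replicate block, 172 genes passed 2-fold, 1102 were higher and 1064 lower in activated flies, and the change was called for 722. With DESeq2, 816 were higher and 783 lower. Genes past 2-fold numbered 54 of 174 with a mean of at least 5 CPM required, which removes low genes. When single libraries were left out, higher genes ran from 717 to 797, lower genes from 603 to 687 and genes past 2-fold from 167 to 200. Over named genes 2104 values kept their direction and call, 153 lost the call, 3 gained it and none reversed. Male reproductive genes were 8 lower, 3 with DESeq2, 14 with no filter on low counts and 1 with a mean of at least 5 CPM. Gut genes were 8 lower, 5 with only the contrast's libraries and 1 with a mean of at least 5 CPM. Low counts limit the gut and male genes and Kdm4B.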

Other observations

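Other lists described in naive flies are given with their share called, against 13.7% of all genes. Of 58 tested cuticle protein genes, 5 were higher and 8 lower in MB131 (22.4%), of which 2 and 7 were called the same way in activated flies. The 5 became 3 without MB131 replicate 1. Odorant-binding and olfactory support genes had 5 higher and 7 lower of 38 tested (31.6%), with the change called for 11, and the 5 became 3 with only the contrast's libraries. Fat body markers had 3 higher and 5 lower of 25 (32.0%), with the change called for 13. Their lower count was 3 in each of the 5 fits that left out an MB131 library or replicate 2 or 3 lacking CsChrimson, and 2 with only the contrast's libraries. Glutathione transferase genes had 6 higher and 2 lower of 32 (25.0%), and the 2 became 1 without MB131 replicate 2. Endoplasmic reticulum stress genes had 4 higher and 0 lower of 17 (23.5%), and the 4 became 2 without MB131 replicate 1 and with only the contrast's libraries. Proteasome subunit genes had 1 call among 38 (2.63%), lost without replicate 1 or 3 lacking CsChrimson. Chemosensory receptor genes had 2 calls among 55 (3.64%), both lower, and 1 lower without MB131 replicate 2. In all, 15 genes called lower had 0 reads in the 3 naive MB131 libraries. Genes with 0 reads there passed the filter on low counts only through other libraries, so they could not be called higher.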
